A study of Mus musculus with 4 samples.

Results

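The genes described here give a neuron its transmitter identity outside the dopaminergic line: the 3 vesicular glutamate transporter genes *Slc17a6*, *Slc17a7* and *Slc17a8*, the serotonergic genes *Tph1*, *Tph2*, *Slc6a4* and *Fev*, and the noradrenergic genes *Dbh* and *Slc6a2*. Every probe that the annotation of the array assigns to one of these symbols was taken, whatever its value. This gave 11 probes of the 41174 on the array, covering 8 of the 9 genes. *Slc17a6*, *Slc17a8* and *Tph1* had 2 probes each, here called the brighter and the dimmer one by their mean intensity, and *Fev* had no probe under its symbol or a listed synonym and was not measured. RNA came from dissected E12.5 midbrain of *Lmx1a-dr/dr* embryos (Dreher, the dr-J point mutation of *Lmx1a*, on a C57Bl/6J background) and of Lmx1a-+/+ embryos. The study also describes this material as mesodiencephalic and retromammillary tegmentum, so it was not midbrain alone. Each of 4 mutant samples (replicates a to d), itself a pool of several midbrains, was hybridized on 1 dual-colour array against the same pool of wild-type RNA. Cy3 labelled the mutant RNA of replicates a and c, and Cy5 that of b and d.

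Glutamatergic neurons load glutamate into synaptic vesicles through a vesicular glutamate transporter, and the 3 members of this family largely divide the nervous system between them. Serotonergic neurons make serotonin from tryptophan through a tryptophan hydroxylase and take it back up through a plasma membrane transporter, under control of the transcription factor Fev (Pet1). Noradrenergic neurons convert dopamine into noradrenaline with dopamine beta-hydroxylase and recover it with their own transporter. Serotonergic and central noradrenergic neurons arise mainly in the hindbrain, next to the midbrain that was dissected here, whereas glutamatergic neurons arise within the midbrain itself, the red nucleus among them.

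None of the 11 probes was called as different between the genotypes. Limma called 0 of 11 at an adjusted p under 0.05, against 0.0% of all probes, and the permutation F2 test used by the study, which shuffles residuals over all probes, also called 0 of 11, against 0.274% of all probes (113 probes, of which 78 or 0.189% were lower and 35 or 0.085% higher in the mutant). At an unadjusted p under 0.05 limma picked 1 of 11 probes, the dimmer one of *Slc17a6*, where 17.1% of all probes reached that level and 8.85% did so with a ratio above 0. The 11 mean log2 ratios ran from -0.08 to 0.20, 7 above and 4 below 0, with a median of 0.01 against 0.001 over all probes. Their median absolute size was 0.074, against 0.045 over all probes. The 95% confidence intervals of 10 of the 11 probes included 0, and all 11 lay between 85.8% and 126% of the wild-type level. Local background was not subtracted from the intensities. For probes near background these intervals therefore do not bound the change in transcript.

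**Figure D1:**
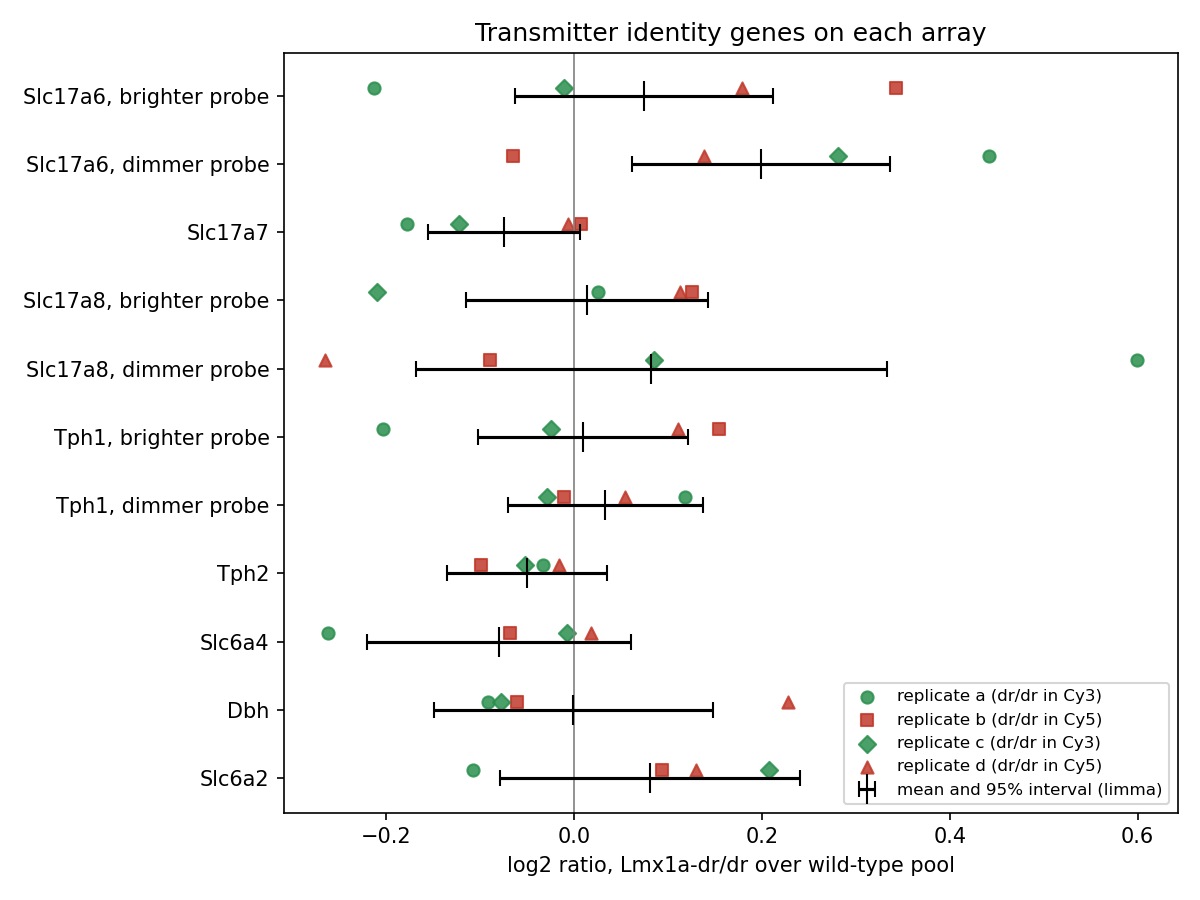
Log2 ratio of *Lmx1a-dr/dr* over the wild-type pool (x axis) for each of the 11 probes (y axis). Coloured symbols are the 4 arrays, green with the mutant in Cy3 and red with the mutant in Cy5, and black bars are the mean with its 95% confidence interval from limma, which includes 0 for 10 of the 11 probes.

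The ratios of these genes have to be read against the arrays as a whole. The median spot intensity was 137 to 174 in Cy5 and 70.0 to 84.7 in Cy3, over local backgrounds of 32.5 to 36.4. Over all probes, with every ratio turned to mutant over wild-type, Pearson's r was 0.639 between replicates a and c and 0.579 between b and d, but -0.34 to -0.29 between arrays in which the mutant carried different dyes. The SD of the dye term over these probes was 0.154 and that of the genotype term 0.103. Each mutant pool was labelled with 1 dye only, and the dye term was estimated against the spread between the 2 pools of an orientation, with 2 residual degrees of freedom. Confidence intervals are those of the limma fit, which takes out the dye term and moderates the error over all probes, so that they can be narrower or wider than the SD of the 4 ratios would give. The wild-type pool was 1 sample measured on every array, so that the spread between wild-type litters enters no value. *Lmx1a* itself read -0.46, -0.75, -0.39 and -0.84 in replicates a to d, lower in the mutant on all 4 arrays (permutation F2 test, family-wise p = 6e-04), although a point mutation need not remove its transcript.

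*Slc17a6* encodes VGLUT2, the vesicular glutamate transporter of most glutamatergic neurons of the brainstem and thalamus. Its brighter probe had raw intensities of 2128 to 2576 in Cy5 and 660 to 819 in Cy3, above background on all 4 arrays in both genotypes. The log2 ratios of this probe were -0.21 in replicate a, 0.34 in b, -0.01 in c and 0.18 in d. The arrays with the mutant in Cy3 thus lay below 0 and those with the mutant in Cy5 above it, with means of -0.11 and 0.26. Over all 4 arrays the mean was 0.07 ± 0.24 (SD, n = 4), or 105% of wild-type with a 95% confidence interval of 95.7% to 116% (limma, adjusted p = 0.566). It ran from 0.02 to 0.12 with 1 array left out, and was 0.13 with median centring in place of loess. After normalization the mutant samples read 1198, 1584, 1262 and 1454 in replicates a to d, and the wild-type pool 1389, 1249, 1271 and 1284 on the same arrays. The mutant levels spread over the whole range of the wild-type readings and beyond it at both ends.

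The dimmer *Slc17a6* probe gave log2 ratios of 0.44 in replicate a, -0.07 in b, 0.28 in c and 0.14 in d. Here the mutant in Cy3 gave the higher ratios, with a mean of 0.36 against 0.04 for the mutant in Cy5, the reverse of the brighter probe. Its mean was 0.20 ± 0.22 (SD, n = 4), or 115% of wild-type with an interval of 104% to 126%, the only interval of the 11 without 0. It had the lowest p-value of the 11 probes, and did not pass after adjustment over all probes (limma, adjusted p = 0.178). Normalized levels were 411, 315, 330 and 317 in the mutant and 303, 329, 272 and 288 in the wild-type pool. The mutant was the higher on 3 of 4 arrays, and the 2 sets of levels overlapped. The difference between both *Slc17a6* probes, brighter minus dimmer, was -0.65, 0.41, -0.29 and 0.04 in replicates a to d, with a mean of -0.12 (exact sign-flip permutation test, 2-sided, p = 0.75, where 4 arrays cannot give a p below 0.125). On 3 of 4 arrays the probes of this gene were therefore further apart than either mean was from 0.

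*Slc17a7* encodes VGLUT1, the transporter of cortical and cerebellar glutamatergic neurons. Its probe lay close to background, with raw intensities of 50.4 to 67.1 in Cy5 and 36.2 to 39.1 in Cy3. It exceeded the local background by more than 2 SD in the Cy5 channel of all 4 arrays and in the Cy3 channel of 0 arrays, so that detection followed the dye and not the genotype. Log2 ratios were -0.18, 0.01, -0.12 and -0.01 in replicates a to d, with a mean of -0.07 ± 0.09 (SD, n = 4) and an adjusted p of 0.321 in limma. The lower ratios were those with the mutant in Cy3, where the mutant channel was not above background.

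*Slc17a8* encodes VGLUT3, which is also found in neurons that use another main transmitter, a subset of serotonergic neurons among them. The brighter of its probes read 0.03, 0.13, -0.21 and 0.11 in replicates a to d, a mean of 0.01 ± 0.16 (SD, n = 4), and had normalized levels of 220 to 289 in the mutant and 230 to 266 in the wild-type pool. The dimmer probe read 0.60, -0.09, 0.08 and -0.27, a mean of 0.08 ± 0.37 (SD, n = 4), the widest spread among the 11. Replicate a stood highest on the dimmer probe, with a normalized mutant level of 156 where the other mutant samples read 109 to 120. As for *Slc17a6*, the order of the dye orientations was opposite on both probes. The mutant in Cy3 gave means of -0.09 and 0.34 on the brighter and the dimmer probe, and the mutant in Cy5 gave 0.12 and -0.18. Limma gave adjusted p-values of 0.937 and 0.751, and the 95% confidence intervals reached from 92.3% to 110% and from 89.0% to 126% of wild-type. Without replicate a the means were -0.05 on both probes. The difference between the probes was -0.57, 0.22, -0.30 and 0.38 (exact sign-flip permutation test, p = 0.875).

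**Figure D2:**
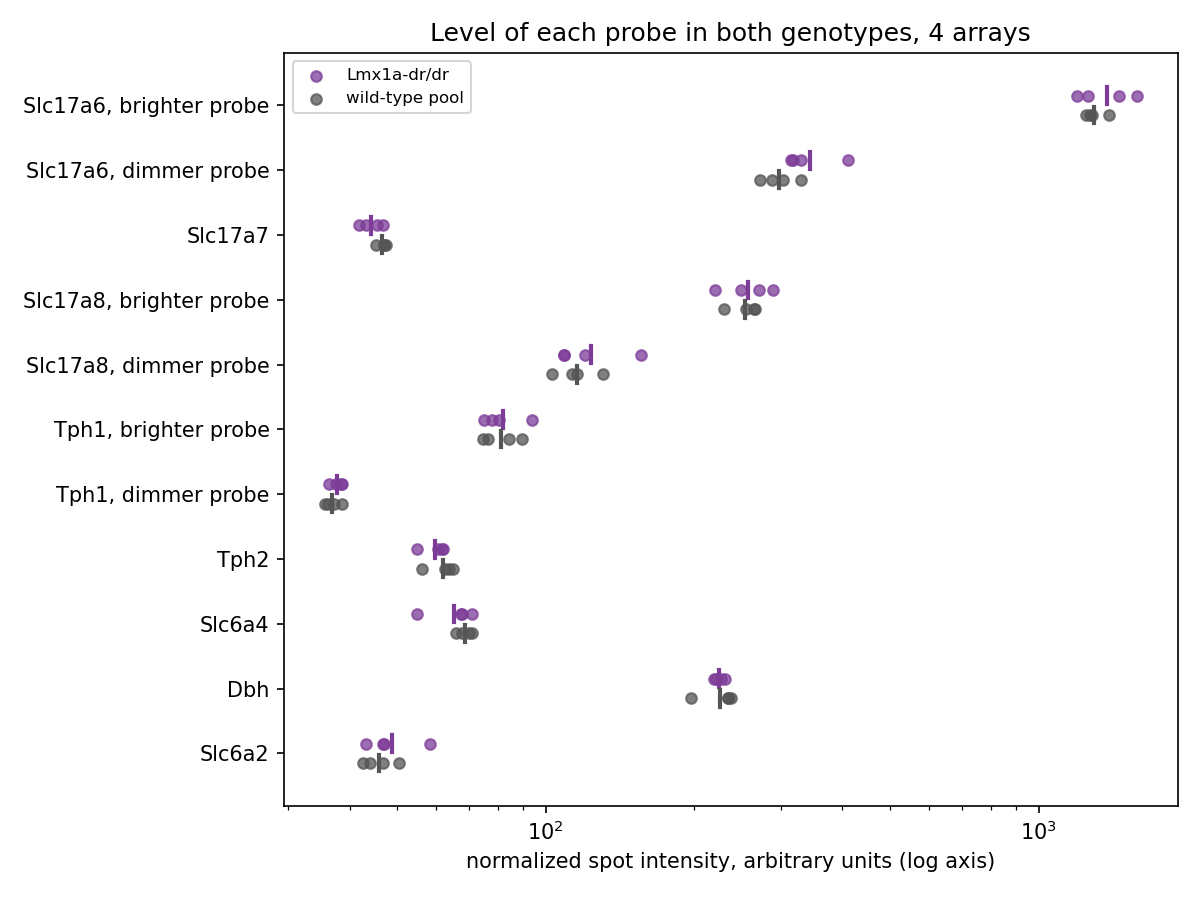
Normalized spot intensity (x axis, log scale, arbitrary units) of the 11 probes in the 4 *Lmx1a-dr/dr* samples (purple) and in the wild-type pool on the same 4 arrays (grey), with vertical bars at the means. The 2 sets of points overlap for every probe, and levels of different probes cannot be compared because probes differ in their response.

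*Lmx1a* encodes a LIM homeodomain protein, and the core that many homeodomain proteins read is TAAT, or ATTA on the other strand. The start regions of *Slc17a6* and *Slc17a8* are shown because these genes gave the lowest p-value and the widest spread among the probes above, and because each has 2 annotated starts that differ in this core. *Tph1* also has 2 annotated starts that differ in it, with 0 and 3 cores, and is not shown. The windows run from 250 bases before to 50 after each start in RefSeq (GRCm38.p6), 5′ to 3′ on the gene's strand, with every TAAT or ATTA in capitals. *Slc17a6* lies on the plus strand of chromosome 7, with windows at chr7:51621580-51621879 and chr7:51624387-51624686, and *Slc17a8* on the minus strand of chromosome 10, with windows at chr10:89621200-89621499 and chr10:89599766-89600065.
Slc17a6, window 1: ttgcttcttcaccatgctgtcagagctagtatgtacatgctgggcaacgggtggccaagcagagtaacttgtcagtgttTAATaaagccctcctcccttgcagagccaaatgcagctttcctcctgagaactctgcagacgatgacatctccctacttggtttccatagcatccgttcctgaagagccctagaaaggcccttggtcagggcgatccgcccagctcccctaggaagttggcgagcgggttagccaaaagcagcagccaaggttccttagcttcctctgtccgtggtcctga
Slc17a6, window 2: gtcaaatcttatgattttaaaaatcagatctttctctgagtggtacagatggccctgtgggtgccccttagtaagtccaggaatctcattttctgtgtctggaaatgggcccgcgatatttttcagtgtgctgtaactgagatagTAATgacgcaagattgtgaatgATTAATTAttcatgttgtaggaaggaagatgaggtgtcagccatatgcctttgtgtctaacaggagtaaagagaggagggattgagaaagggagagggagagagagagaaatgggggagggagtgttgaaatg
Slc17a8, window 1: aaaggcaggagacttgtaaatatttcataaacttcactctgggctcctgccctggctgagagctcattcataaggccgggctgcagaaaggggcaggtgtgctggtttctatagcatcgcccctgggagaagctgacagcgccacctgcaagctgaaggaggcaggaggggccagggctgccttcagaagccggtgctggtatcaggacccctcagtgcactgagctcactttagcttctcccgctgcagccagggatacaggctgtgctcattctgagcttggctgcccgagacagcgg
Slc17a8, window 2: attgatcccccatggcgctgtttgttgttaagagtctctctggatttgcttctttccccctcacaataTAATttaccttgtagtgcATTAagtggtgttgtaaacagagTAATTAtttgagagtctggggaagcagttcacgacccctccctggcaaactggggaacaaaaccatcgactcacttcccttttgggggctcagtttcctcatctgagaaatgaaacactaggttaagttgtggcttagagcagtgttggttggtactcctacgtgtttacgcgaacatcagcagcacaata
Counting overlapping matches on both strands, window 1 of *Slc17a6* held 1 core and window 2 held 4, while window 1 of *Slc17a8* held 0 and window 2 held 4. Both second windows also contained the palindrome TAATTA, which includes the core on each strand. RefSeq gave 11 such windows for 8 of the 9 genes, *Fev* included. At least 1 core was present in 8 of these 11 windows, against 58.0% of the 32851 windows of all genes, and TAATTA was present in 4 of 11, against 5.29%. A match of letters is no evidence of binding, and the arrays cannot say from which start a transcript came.

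*Tph1* and *Tph2* encode the tryptophan hydroxylases, the rate-limiting enzymes of serotonin synthesis, of which *Tph2* is the neuronal form and *Tph1* acts mainly in the pineal gland, the gut and mast cells. *Tph2* read -0.03, -0.10, -0.05 and -0.02 in replicates a to d. It was the only one of the 11 probes with the same sign on all 4 arrays (1 of 11, where 16.1% of all probes had 1 sign), and also the one with the smallest spread. Its mean was -0.05 ± 0.036 (SD, n = 4), or 96.6% of wild-type with a 95% confidence interval of 91.0% to 102% (limma, adjusted p = 0.529), and ran from -0.07 to -0.03 with 1 array left out. An exact sign-flip permutation test gave p = 0.125, the smallest that 4 arrays allow. Normalized levels were 54.9, 60.6, 61.5 and 61.9 in the mutant and 56.1, 64.9, 63.7 and 62.5 in the wild-type pool, above background on all 4 arrays in both genotypes. The levels differed more between replicate a and the other arrays than between the genotypes on any array. In Cy3 the raw intensities of *Tph2* were only 46.8 to 48.8, over a local background of 30.7 to 31.9. That background was not subtracted, so the small spread and the interval do not bound the change in transcript.

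The brighter *Tph1* probe read -0.20, 0.15, -0.02 and 0.11 in replicates a to d. Its ratios were below 0 with the mutant in Cy3 and above 0 with the mutant in Cy5, and its mean was 0.01 ± 0.16 (SD, n = 4; limma, adjusted p = 0.954). The dimmer probe read 0.12, -0.01, -0.03 and 0.05, a mean of 0.03 ± 0.067 (SD, n = 4; limma, adjusted p = 0.759). It exceeded the background in 2 mutant and 1 wild-type channel of the 4 arrays, so that these small ratios lie largely within background. The difference between the probes was -0.32, 0.16, 0.00 and 0.06 (exact sign-flip permutation test, p = 1).

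*Slc6a4* encodes the serotonin transporter. Its log2 ratios were -0.26, -0.07, -0.01 and 0.02 in replicates a to d, of which only replicate a lay apart from 0. The mean of -0.08 ± 0.13 (SD, n = 4) corresponds to 94.6% of wild-type, with a 95% confidence interval of 85.8% to 104% (limma, adjusted p = 0.543). The mean was -0.02 without replicate a and -0.14 without c. In replicate a the mutant read 54.7 and the wild-type pool 65.6, while the other 3 mutant samples read 67.3 to 70.8 and the pool 67.7 to 70.9. The probe was above background on all 4 arrays in both genotypes, at 2.68 to 8.42 background SD. In Cy3 its raw intensities were 47.9 to 51.0 over an unsubtracted local background of 31.4 to 34.1. Its interval therefore does not bound the change in transcript.

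*Dbh* encodes dopamine beta-hydroxylase, the enzyme that turns dopamine into noradrenaline. Its log2 ratios were -0.09, -0.06, -0.08 and 0.23 in replicates a to d. Replicates a to c lay close together and replicate d stood above them. Normalized levels were 219, 227, 222 and 231 in the mutant and 234, 237, 234 and 197 in the wild-type pool, so that replicate d differed in the reading of the wild-type pool rather than in that of the mutant. The mean was -0.001 ± 0.15 (SD, n = 4), or 99.9% of wild-type with a 95% confidence interval of 90.2% to 111% (limma, adjusted p = 0.997). The mean was -0.07 without replicate d, 0.07 without b and 0.003 without a.

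*Slc6a2* encodes the noradrenaline transporter, which clears noradrenaline from the synaptic cleft. Its probe read -0.11, 0.09, 0.21 and 0.13 in replicates a to d, a mean of 0.08 ± 0.13 (SD, n = 4; limma, adjusted p = 0.595). The mutant was the higher on 3 of 4 arrays. Raw intensities of 51.2 to 66.2 in Cy5 and 34.8 to 46.1 in Cy3 were near the background, which they exceeded in 3 mutant and 2 wild-type channels of the 4 arrays. Its 95% confidence interval reached from 94.7% to 118% of wild-type. The mean was 0.002 without replicate c and 0.16 without a, and 0.005 with median centring.

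**Figure D3:**
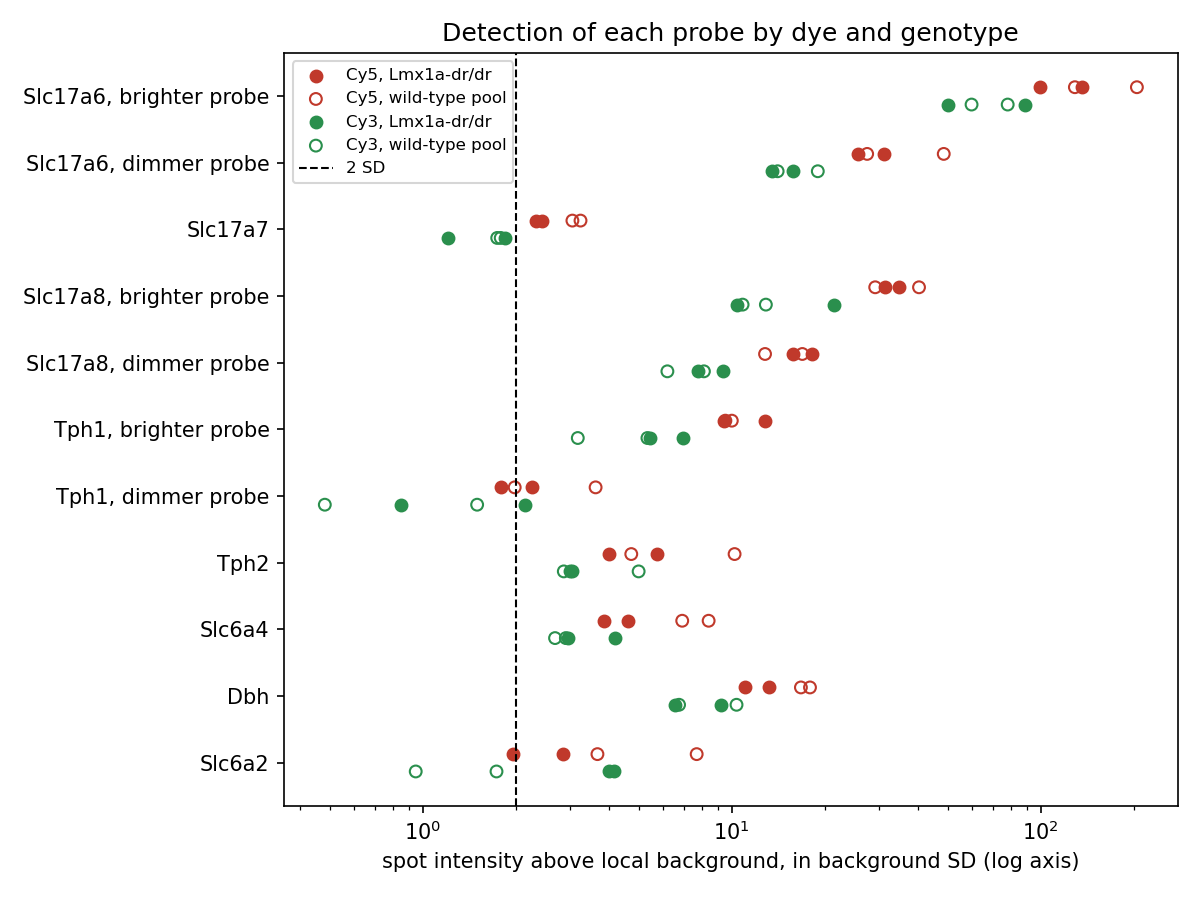
Spot intensity above the local background, in background SD (x axis, log scale), for the 11 probes in Cy5 (red) and Cy3 (green), with filled points for *Lmx1a-dr/dr* and open points for the wild-type pool. The dashed line marks 2 SD, which *Slc17a7*, *Slc6a2* and the dimmer *Tph1* probe did not exceed in every channel.

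Of the 11 probes, 8 exceeded the background by 2 SD on all 4 arrays in both genotypes, where 75.9% of all probes did so. The others were *Slc17a7*, *Slc6a2* and the dimmer *Tph1* probe. At 3 SD the count was 6, as *Tph2* and *Slc6a4* dropped out. For several of the probes the dye term was larger in size than the mean log2 ratio. Each mutant pool carried 1 dye only, so a dye effect cannot be told apart from a difference between the pools of both orientations. For 3 of 11 probes, the brighter ones of *Slc17a6* and *Tph1* and the dimmer one of *Slc17a8*, the sign followed the dye on all 4 arrays, against 33.6% of all probes. The dye term had an unadjusted p under 0.05 in limma for 4 of 11 probes, the 2 of *Slc17a6*, the dimmer one of *Slc17a8* and the brighter one of *Tph1*, against 27.1% of all probes, and an adjusted p under 0.05 for 0 of 11, against 5.04%.

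**Figure D4:**
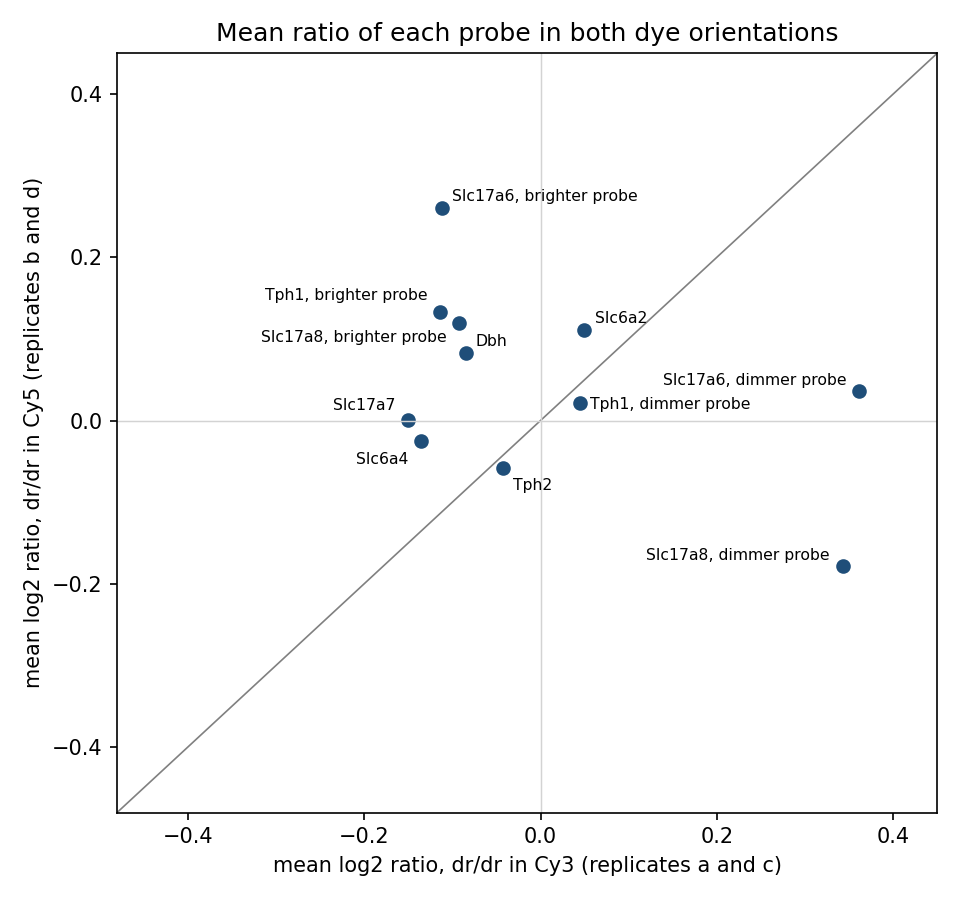
Mean log2 ratio of each of the 11 probes over the 2 arrays with the mutant in Cy3 (x axis) and over the 2 arrays with the mutant in Cy5 (y axis). Points on the diagonal had the same ratio in both orientations, and both *Slc17a6* probes and the dimmer *Slc17a8* probe lie far from it, the brighter *Slc17a6* probe above and the other two below.

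The wider transmitter programmes were read from 6 lists with 78 genes in all, of which 68 were measured, each by its brightest probe. A gene counted as called where any of its probes passed the F2 test, and 0.503% of all genes on the array did so. The lists held 3 such genes, *Th* lower and *Pou4f1* and *Tfap2b* higher, while limma called 0 at an adjusted p under 0.05 (26, or 38.2% of the 68, at an unadjusted p under 0.05, against 18.3% of all genes by their brightest probe), and the median log2 ratio was -0.03. The lists were chosen with earlier results of these data known, and the study itself reports *Th* and *Pou4f1* from these arrays. An excess over the share of all genes is therefore not an independent result.

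For the supply of glutamate, 13 of 15 listed genes of synthesis, uptake and recycling were measured, with 0 calls and a median of -0.09. *Slc1a3*, the glial glutamate transporter GLAST, read 0.21 on its brightest probe (limma, adjusted p = 0.422). Its other probes read 0.08 and 0.09. Of 10 genes of vesicular transport and the *Slc17* family 9 were measured, with 0 calls and a median of -0.01. Among them *Slc17a9*, the vesicular nucleotide transporter, read -0.03 (adjusted p = 0.665) and *Slc18a2*, the vesicular monoamine transporter, -0.13 (adjusted p = 0.261). Of 17 transcription factors of glutamatergic fate 16 were measured, with a median of 0.01, a range of -0.58 to 0.53 and 1 call. *Pou4f1* (Brn3a), a transcription factor of the red nucleus and habenula, was higher on its brighter probe, at 0.38, 0.52, 0.44 and 0.76 in replicates a to d, or 144% of wild-type (permutation F2 test, family-wise p = 0.0076). Its dimmer probe read -0.67, 0.02, -0.15 and -0.03 and was not called. The study lists *Lhx9*, another gene of this list, as higher. Here its most changed probe read 0.42 (permutation F2 test, family-wise p = 0.086), and the gene was not called.

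Of 19 genes of the serotonergic programme 18 were measured, with 0 calls and a median of -0.07. *Nkx2-2*, which patterns the progenitors of serotonergic neurons, read -0.48, -0.04, -0.32 and -0.32 in replicates a to d, below 0 on all 4 arrays, with a mean of -0.29 ± 0.18 (SD, n = 4; limma, adjusted p = 0.135). *Gata2* and *Gata3*, transcription factors upstream of *Fev* in serotonergic neurons that also act in midbrain GABAergic neurons, read 0.19 (adjusted p = 0.546) and 0.15 (adjusted p = 0.270). *Ddc*, the decarboxylase shared by all monoamine neurons, read -0.17 on its brighter probe (adjusted p = 0.229) and 0.006 on its dimmer one.

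Of 15 noradrenergic genes 12 were measured, with a median of -0.09 and 2 calls. *Th*, the hydroxylase that dopaminergic and noradrenergic neurons share, read -0.61, -0.58, -0.55 and -0.48 in replicates a to d, lower on every array, or 68.1% of wild-type (permutation F2 test, family-wise p = 0.0012). *Dbh*, which noradrenergic and not dopaminergic neurons express, read 99.9% of wild-type on the same arrays, and the difference between both genes was not tested. *Tfap2b*, a transcription factor of noradrenergic and midbrain tectal development, was called higher on 1 of 3 probes, at 0.69, 0.38, 0.91 and 0.42 in replicates a to d (permutation F2 test, family-wise p = 0.0018). Its brightest probe read 0.69, -0.57, 0.72 and -1.60 and was not called. The third probe read 0.89, 0.34, 0.97 and -0.09, or 144% of wild-type against 152% for the called one, and was not called. *Phox2a*, which specifies noradrenergic neurons, read -0.09 (adjusted p = 0.299). Of 7 relatives of the hydroxylases and SLC6 transporters 5 were measured, with a median of -0.02, and *Th* was the 1 call.

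Markers of the labelled tissue were present, with 8 of 8 midbrain and floor plate genes above background on all 4 arrays in both genotypes. The median log2 ratio of this list was -0.10, and 2 of its genes, *Nr4a2* at -0.75 and *Th* at -0.55, were called lower by the F2 test. *Nr4a2* was called on its brightest probe only, and its other probes read -0.09 and -0.06. Hindbrain markers bear on the serotonergic and noradrenergic genes. Of 8 such markers 7 were measured, and 5 were above background on all 4 arrays in each genotype, while *Hoxb1* and *Hoxb2* were not. Their summed normalized intensity was 889 to 1020 in the mutant and 999 to 1063 in the wild-type pool, with 0 F2 calls and a median log2 ratio of -0.02. At an unadjusted p under 0.05 in limma, 2 of the 7 hindbrain markers had a lower probe and 0 a higher one. Over the array, 17.1% of all probes reached that level in either direction. For *Tph1*, *Aanat* and *Crx* were read as pineal markers, and *Kit* and *Cpa3* as mast cell markers. The pineal list had 3 of 4 genes measured and a median of 0.04, and that of blood and mast cells 6 of 7 and a median of -0.04, each with 0 F2 calls. The pineal list includes *Otx2*, which is also in the midbrain list. *Crx* and *Cpa3* were not above background on all 4 arrays in either genotype. For *Dbh* and *Slc6a2*, which peripheral sympathetic neurons also express, 6 of 7 markers of neural crest and ganglia were measured, with a median of -0.01 and 0 F2 calls. In dissected tissue, fewer cells of a type and less RNA per cell cannot be told apart, and the share of hindbrain tissue in each dissection was not tested as a source of any ratio.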

How the data were processed

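Total RNA of dissected E12.5 midbrain was amplified, labelled and hybridized to dual-colour Agilent whole mouse genome arrays. The authors deposited spot and local background intensity per channel from ImaGene, not normalized, and a table of log2 ratios made by print-tip loess. Log2 ratios were computed from mean spot intensities without background subtraction, with 1 loess curve per array (span 0.3, 4 iterations, limma 3.58.1, R 4.3.3), leaving the 4046 control spots without weight. Normalized levels per channel came from Aquantile scaling. All 41174 probes were fitted with lmFit and eBayes with a dye term and Benjamini-Hochberg adjustment. The 4 ratios were tested against 0. The permutation F2 test (5000 shuffles, family-wise p under 0.05) and all tables used Python 3.11.15, numpy 2.4.6 and pandas 2.3.3, and matplotlib 3.10.9 drew the plots. Both tests were tested on simulated data. "Lower" and "higher" as calls refer to the F2 test. Probes were named from the array annotation (18322 symbols, 16254 current in RefSeq GRCm38.p6 and 2020 updated through a synonym). Each probe of the 9 genes was named whatever its value. From the lists, genes with an F2 call were named, and *Gata2*, *Gata3*, *Nkx2-2*, *Phox2a*, *Slc18a2*, *Ddc*, *Slc1a3* and *Slc17a9* always, as set with the lists. *Lhx9* was named because the study lists it as higher. Other genes set then are not reported here, and the rest of a list is given by counts and its median. Members and lists were chosen with earlier results of these data known. Alternatives were median centring, normexp with an offset of 50, a fit without the dye term or without dim probes, an intensity trend, the authors' table, median spot intensity, each array left out, and a margin of 3 background SD.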

Additional observations from a re-analysis of the deposited data

Results flagged for a closer look

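The 4 log2 ratios of each of the 11 probes were examined for a single array far from the others, and 1 group was singled out. For *Dbh*, replicate d read 0.23 where replicates a to c read -0.09, -0.06 and -0.08, and its gap to the nearest of them was 0.904 of the whole range, above Dixon's critical value for 4 samples. On that array the wild-type pool read 197 after normalization, against 234 to 237 on the other arrays, while the mutant samples read 219 to 231. Chance marks about 5% of such groups.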

How the results depend on the processing

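Each log2 ratio already pairs the mutant with the wild-type pool on 1 array. No further pairing was possible because the 4 arrays form 1 group, each with its own mutant pool, set against 1 wild-type pool. In the 8 alternatives that change a ratio, 78 of 88 log2 ratios of the 11 probes kept their direction and their side of the threshold, 9 changed sign and 1 passed the threshold. The other 4 alternatives leave the ratio as it is and changed no call in 38 comparisons. With median spot intensity, the dimmer *Slc17a6* probe read 0.17 (limma, adjusted p = 0.0438), so that 1 of the 11 probes was called instead of 0, and 3051 of all probes were called instead of 0. Over all probes the count was also 167 with median centring, 52 with dim probes left out (6 of the 11 probes among those removed), 399 with an intensity trend and 113 by the F2 test, and it was 0 with each array left out. Leaving out 1 array also gave 0 calls among the 11 probes. With 1 array left out, the brighter *Slc17a8* probe ran from -0.045 (without replicate a) to 0.072 and the dimmer one from -0.046 (without a) to 0.21. The brighter *Tph1* probe ran from -0.036 (without c) to 0.054, with -0.002 without b, and the dimmer one from -0.0035 (without a) to 0.070. *Dbh* ran from -0.073 (without d) to 0.071 (without b), with 0.003 without a, both of the latter opposite in sign to its mean. The sign also changed for the brighter *Slc17a8* probe with median spot intensity (-0.027) and for the dimmer *Tph1* probe with median centring (-0.013). The causes were not tested. The fit with a dye term has 2 residual degrees of freedom, and 1 with an array left out. Dim probes limit what can be seen for *Slc17a7*, *Slc6a2* and the dimmer *Tph1* probe. The same holds for *Tph2* and *Slc6a4*, which did not pass a margin of 3 background SD in every channel.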

Other observations

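After the values were seen, the 2 probes of a gene were also averaged on each array. For *Slc17a6*, whose probes had dye terms of opposite sign (0.19 and -0.16), the average read 0.11, 0.14, 0.14 and 0.16 in replicates a to d, above 0 on 4 of 4 arrays, with a mean of 0.14 ± 0.018 (SD, n = 4) or 110% of wild-type. The dye term of this average was 0.01, and limma gave an adjusted p of 0.123 over all 25310 averaged units. Its unadjusted p was under 0.05, as for 17.0% of those units, while 16.1% of them had the same sign on all 4 arrays and 0 passed after adjustment. An exact sign-flip permutation test gave p = 0.125, the smallest that 4 arrays allow. The averages of *Slc17a8* and *Tph1* were 0.05 (adjusted p = 0.813) and 0.02 (adjusted p = 0.779).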
